A study of Homo sapiens with 6 samples.

Results

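The genes described here are 10 feedback inhibitors of mitogen-activated protein kinase (MAPK) signalling, DUSP1, DUSP4, DUSP5, DUSP6, DUSP10, SPRY1, SPRY2, SPRY4, SPRED1 and SPRED2. They were chosen by name, each symbol matched 1 row, and they are 10 of 27420 genes with expression values in 2 Ewing sarcoma cell lines, A673 and SKNMC. Both lines grew in medium with serum. Cells received DMSO alone, the solvent, or THZ1, a covalent inhibitor of the transcription kinase CDK7, at 50 or 200 nM, and total RNA was taken after 6 h, which gives 6 libraries. With 1 library per line and dose, no difference within a line could be set against a replicate error, no p-value is given, and neighbours in an order of levels cannot be called different.

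In MAPK signalling, an activated receptor loads RAS with GTP, and RAS then starts the RAF, MEK and ERK kinase cascade. Active ERK switches on genes whose products shut the pathway down again. Dual-specificity phosphatases (DUSP) remove phosphate from ERK, p38 or JNK, while Sprouty (SPRY) and SPRED proteins act further up, between the receptor and RAF. Many of these transcripts are short-lived, and in tumours their levels are often read as a measure of ERK activity. As background, A673 cells are known to carry an activating BRAF mutation, and its part in the values below was not tested.

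Levels are FPKM as deposited by the authors, that is, fragment numbers divided by transcript size and by the total mapped in that library. Changes are log2 ratios of FPKM + 1, which understate the change of genes with low values, and percentages of a level are of FPKM with nothing added. A gene was called active in a line when its DMSO library had more than 1 FPKM, which held for 9 of the 10 genes in A673 and 7 of 10 in SKNMC. All 10 markers of Ewing sarcoma cells, CD99, NKX2-2 and MEIS1 among them, were above 1 FPKM in all 6 libraries, with summed levels between 862 and 1695 FPKM. No listed endothelial or skeletal muscle marker reached 1 FPKM. Among 4 leukocyte markers CD68 did in A673 and PTPRC in SKNMC, and among 4 epithelial markers the keratins KRT8 and KRT18 did in all libraries, while EPCAM and CDH1 did not. No other listed gene overlaps any of the 10 genes, and genes other than protein-coding and lincRNA genes are not listed.

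The promoter letters are shown for DUSP1, the gene with the lowest mean of its 4 log2 fold changes, and for DUSP6, the gene with the highest level in A673. RefSeq windows, from 250 bases before to 50 bases after the start of a transcript (GRCh38.p14), were found for 8 of the 10 genes, with 13 windows in all; DUSP4 and DUSP5 had none. The motifs searched on both strands were TGACGTCA, known as the cAMP response element, and the TATA box TATAAA. A longer form of the ETS factor site, GGAAGT, and a pair of GGAA repeats, GGAAGGAA, which do not contain each other, were searched as well. The shorter ETS core GGAA was not searched by itself. Capitals mark the matches. The 250 bases before the start are printed 5′ to 3′ on the gene's own strand, which is the minus strand for both, at chr5:172771196-172771445 for DUSP1 and at chr12:89352502-89352751 for DUSP6.
DUSP1: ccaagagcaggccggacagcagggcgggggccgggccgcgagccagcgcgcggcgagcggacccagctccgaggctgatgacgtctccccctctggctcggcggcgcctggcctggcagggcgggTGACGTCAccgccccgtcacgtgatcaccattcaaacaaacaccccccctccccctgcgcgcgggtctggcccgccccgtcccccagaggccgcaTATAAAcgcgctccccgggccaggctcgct
DUSP6: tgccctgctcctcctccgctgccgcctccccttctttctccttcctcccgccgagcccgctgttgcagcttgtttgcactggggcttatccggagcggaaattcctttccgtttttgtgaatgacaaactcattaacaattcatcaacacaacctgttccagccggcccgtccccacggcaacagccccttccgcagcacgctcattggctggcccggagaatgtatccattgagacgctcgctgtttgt
The DUSP1 window held TGACGTCA from position -125 and TATAAA from position -30, counted from the start of the transcript. Of all 35116 windows, 1.85% hold TGACGTCA and 11.5% hold TATAAA. The DUSP6 window held none of the 4 motifs, though the shorter GGAA occurs in its printed bases. In the other windows there was 1 GGAAGT, from position -6 of the second of 3 SPRY2 starts, against 22.8% of all windows, and 1 TATAAA, from position -31 of the second of 2 SPRED2 starts. GGAAGGAA, found in 3.67% of all windows, was in none of the 13. Such matches describe letters and not bound sites.

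The clearest pattern was a further loss between the 2 doses. In A673 all 9 active genes had lower FPKM at 200 nM than at 50 nM THZ1, where 51.7% of the 11077 active genes did. In SKNMC all 7 active genes did, where 62% of the 11896 active genes did. The counts were 9 of 9 and 7 of 7 also with each library rescaled to a common sum, to its 75th percentile or to its ribosomal protein genes, while the shares of all active genes then lay between 43.6% and 62.4% in A673 and between 42.9% and 75.9% in SKNMC. The 3 genes below the active limit in SKNMC were lower at 200 nM too. A decrease at 50 nM followed by a further one at 200 nM was seen for 6 of 9 genes in A673, where 36.4% of active genes had it, and for 6 of 7 in SKNMC, where 42.7% had it. With 75th percentile scaling the SKNMC count was 4 of 7, without DUSP5 and SPRED2. The share of 42.7% was not recomputed for that scaling, under which 42.9% of active SKNMC genes were lower at 200 nM than at 50 nM. No member increased at least 2-fold from 50 nM to 200 nM, where 0.117% of active genes did in A673 and 0.37% in SKNMC. The median log2 change from 50 nM to 200 nM was -0.68 in A673, against -0.019 for all active genes, and -0.57 in SKNMC, against -0.14. Many other genes of the pathway, listed below, were lower at 200 nM too. Of them, 32 of 47 active ones were lower in A673 (median -0.30) and 28 of 46 in SKNMC (-0.33). In A673 all list medians lay between -0.43 and -0.22. By list, SKNMC medians were -0.52 for RAS GTPase-activating proteins and other brakes, -0.48 for the kinase cascade and -0.46 from receptors to RAS. Relatives of the members and genes switched on by ERK went the other way there, with 0.18 and 0.039. Members and lists were chosen with earlier results of these libraries known, so these counts are a description.

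**Figure D1:**
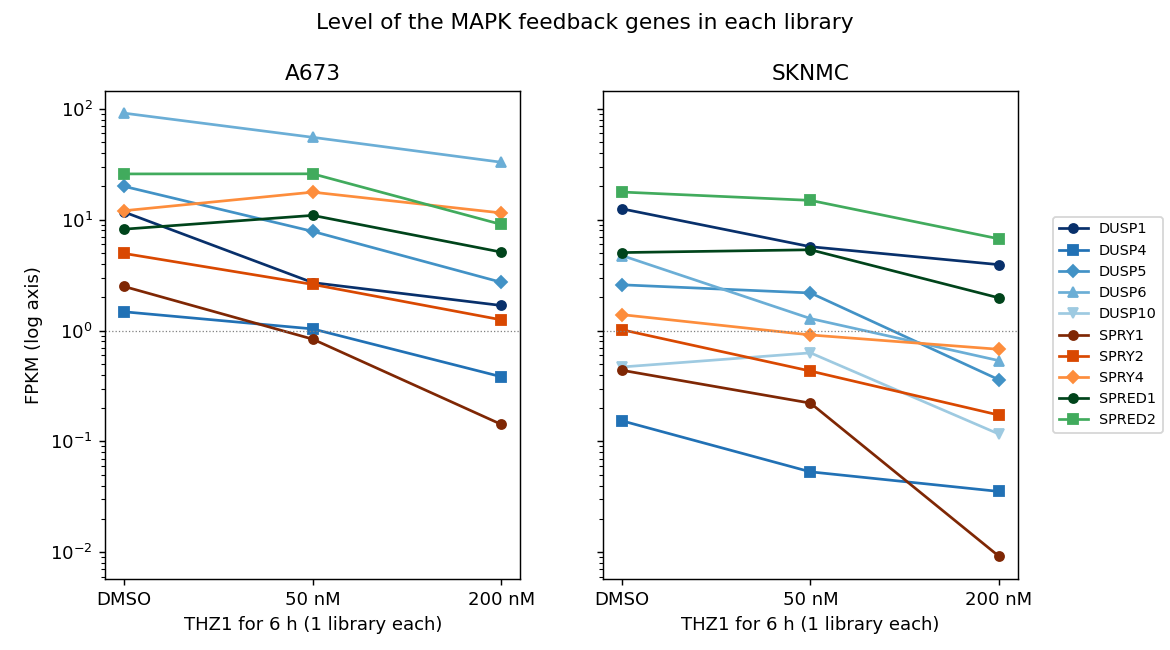
FPKM (log axis) of each gene in the DMSO, 50 nM and 200 nM THZ1 libraries of A673 (left) and SKNMC (right), 1 library per point, with a dotted line at 1 FPKM. With DMSO, DUSP6 was highest in A673 at 91.4 FPKM and SPRED2 in SKNMC at 17.8 FPKM; DUSP10, listed at 0 in A673, is drawn for SKNMC alone.

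Against DMSO, few of these genes were past 2-fold at 50 nM and most were at 200 nM. A decrease of 2-fold or more in A673 at 50 nM was seen for 2 of the 9 active members (DUSP1 and DUSP5), where 15.9% of all active genes had one. At 200 nM it was seen for 6 of 9, where 25.3% had one. The SKNMC counts were 2 of 7 at 50 nM (DUSP1 and DUSP6), where 15.8% had one, and 5 of 7 at 200 nM, where 27.3% had one. At 200 nM, DUSP1, DUSP5, DUSP6 and SPRED2, 4 of the 7 genes active in both lines, had such a decrease in both, where 20.4% of genes did. With 75th percentile scaling 2 of 7 (DUSP5 and DUSP6) had it. The share of 20.4% was not recomputed for that scaling, under which 17.3% of active genes in A673 and 13.4% in SKNMC had such a decrease. Counted by any decrease from DMSO, the A673 members were 6 of 9 at 50 nM (70.1% of active genes) and 9 of 9 at 200 nM (70.4%), and the SKNMC members 6 of 7 (73%) and 7 of 7 (80.8%), which at 50 nM is close to the share of all genes. With 75th percentile scaling it was 4 of 7 in SKNMC at 50 nM and 8 of 9 in A673 at 200 nM. The shares of all active genes with any decrease were not computed under that scaling. Their median log2 fold changes were then -0.069 and -0.072 in these comparisons. None of the 10 genes increased at least 2-fold in any of the 4 comparisons, where 0.343% (50 nM) and 0.126% (200 nM) of active A673 genes and 0.471% and 0.462% of active SKNMC genes did. Among the A673 members the median log2 fold change was -0.71 at 50 nM and -1.42 at 200 nM, against -0.27 and -0.40 for all active genes. For the SKNMC members it was -0.32 at 50 nM, the same as the -0.32 of all active genes, and -1.28 at 200 nM, against -0.55. Both doses of a line share its DMSO library, so an error in that library would enter both. DUSP1 in SKNMC at 50 nM and SPRED1 in SKNMC at 200 nM lay just past the limit, with -1.01 and -1.03.

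How the libraries are scaled bears on the SKNMC counts. With each library divided by its 75th percentile over active genes, the median log2 fold change of active genes shifted up by 0.22 and 0.32 in A673 and by 0.25 and 0.48 in SKNMC (50 and 200 nM). Under that scaling 2 of 7 genes, DUSP5 and DUSP6, decreased at least 2-fold in SKNMC at 200 nM and 0 increased, while over all active genes 13.4% decreased and 4.33% increased, in place of 27.3% and 0.462%. The A673 counts were 2 and 6 of 9 under it, beside 11.0% and 17.3% of all active genes. Scaling to ribosomal protein genes shifted the medians the other way, by -0.19 and -0.29 in A673 and -0.34 and -0.47 in SKNMC, and at 200 nM in SKNMC it gave 5 of 7 members beside 51.1% of all active genes. Since FPKM values are relative to the rest of their library, they do not show a change in the amount of RNA per cell.

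**Figure D2:**
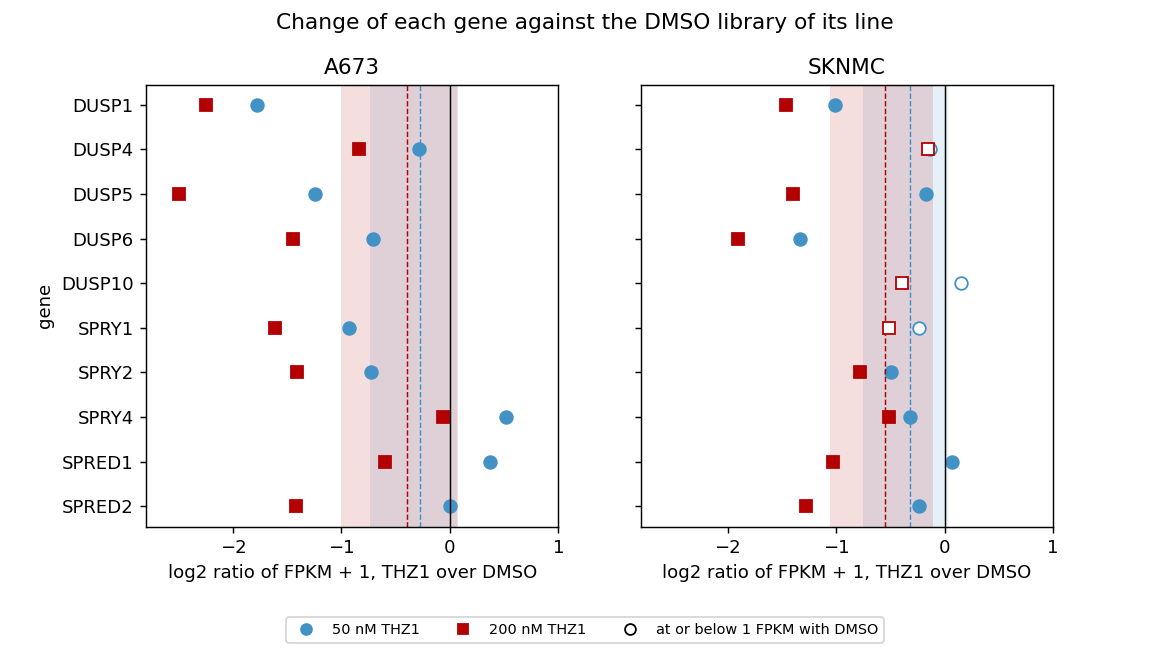
Log2 ratio of FPKM + 1 of each gene at 50 nM (blue circles) and 200 nM THZ1 (red squares) over DMSO in A673 (left) and SKNMC (right), 1 library per condition; shaded bands hold the middle 50% of all active genes at each dose and dashed lines their medians, and open symbols are genes at or below 1 FPKM with DMSO. At 200 nM the 5 genes DUSP1, DUSP5, DUSP6, SPRED1 and SPRED2 were past -1 in SKNMC, and in A673 SPRY4 was at -0.061.

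Among the phosphatases, DUSP1 had the lowest log2 fold change at 50 nM in A673, and DUSP6 had it in SKNMC. DUSP1 is a nuclear phosphatase, also called MKP-1, that acts on p38, JNK and ERK (ENSG00000120129, chromosome 5, bases 172195092 to 172198198, minus strand; all gene coordinates are hg19). It was at 11.7 FPKM with DMSO in A673, 2.71 at 50 nM and 1.68 at 200 nM. The SKNMC libraries held 12.5, 5.71 and 3.93 FPKM. In both lines each dose was lower than the one before, and the 50 nM libraries held 23.1% of the DMSO level in A673 and 45.5% in SKNMC. The log2 fold changes in A673 were -1.78 and -2.25, and 2.65% and 2.63% of active genes were lower still. In SKNMC they were -1.01 and -1.46, and 15.4% and 12.4% of active genes were lower still. DUSP1 was the one gene of the 7 active in both lines that decreased at least 2-fold in both at 50 nM. Of the 10574 genes active in both lines, 11.4% did. With common sum or 75th percentile scaling the count was 0, and the 11.4% was not recomputed.

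DUSP6, or MKP-3, is a cytoplasmic phosphatase selective for ERK (ENSG00000139318, chromosome 12, bases 89741008 to 89747048, minus strand). In A673 it was at 91.4 FPKM with DMSO, 55.4 at 50 nM and 33.0 at 200 nM, which left 36.1% of the DMSO level at the high dose. In SKNMC it was at 4.75, 1.28 and 0.535 FPKM, which left 11.3%. DUSP6 thus stayed well above 1 FPKM in all A673 libraries and went below it in SKNMC at 200 nM. The log2 fold changes were -0.71 and -1.44 in A673 and -1.33 and -1.91 in SKNMC.

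DUSP5 is a nuclear phosphatase that acts on ERK alone among the MAPKs (ENSG00000138166, chromosome 10, bases 112257595 to 112271302, plus strand). It was at 19.99 FPKM with DMSO in A673, 7.84 at 50 nM and 2.73 at 200 nM. The SKNMC levels were 2.59, 2.18 and 0.359 FPKM. At 50 nM the lines stood apart, with 39.2% of the DMSO level left in A673 and 84.4% in SKNMC, while at 200 nM they were alike, with 13.6% and 13.9%. The log2 fold changes were -1.25 and -2.49 in A673 and -0.17 and -1.40 in SKNMC, and the SKNMC value at 50 nM turned to 0.034 when libraries were scaled by the 75th percentile. Of all active genes in A673, 1.26% were lower still at 200 nM.

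DUSP4 and DUSP10 were near or below the limit of 1 FPKM. DUSP4, or MKP-2, is a nuclear phosphatase of ERK and JNK (ENSG00000120875, chromosome 8, bases 29190580 to 29208185, minus strand). It was at 1.48, 1.03 and 0.383 FPKM in A673 with DMSO, 50 nM and 200 nM, and at 0.153, 0.0531 and 0.0354 FPKM in SKNMC. The A673 library at 200 nM held 26.0% of its DMSO level. On the FPKM + 1 scale the log2 fold changes in A673 were -0.28 and -0.84, and the second was -1.71 with a pseudocount of 0.1 FPKM, so whether it passes 2-fold depends on the added value. DUSP10, or MKP-5, acts on p38 and JNK (ENSG00000143507, chromosome 1, bases 221874765 to 221915518, minus strand). It is listed at 0 in the 3 A673 libraries, and was at 0.469, 0.629 and 0.116 FPKM in SKNMC, so the 200 nM library was the lowest and no library reached 1 FPKM.

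The Sprouty genes split in A673, with SPRY1 and SPRY2 lower at each dose and SPRY4 largely kept. In SKNMC SPRY1, SPRY2 and SPRY4 were all lower at each dose. SPRY2, whose product blocks the signal from receptors to RAS (ENSG00000136158, chromosome 13, bases 80910110 to 80915086, minus strand), was at 4.96, 2.61 and 1.25 FPKM in A673 with DMSO, 50 nM and 200 nM. In SKNMC it was at 1.02, 0.431 and 0.173 FPKM. That left 25.2% of the DMSO level at 200 nM in A673 and 17.0% in SKNMC, with log2 fold changes of -0.72 and -1.41 in A673 and -0.50 and -0.78 in SKNMC. The SKNMC level lies just above the active limit, where 1 added FPKM takes up most of the change.

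SPRY1, a Sprouty gene of the same action (ENSG00000164056, chromosome 4, bases 124317949 to 124324910, plus strand), was at 2.50, 0.836 and 0.142 FPKM in A673. The SKNMC levels were 0.438, 0.221 and 0.00918 FPKM. In A673 5.70% of the DMSO level was left at 200 nM, the lowest share among the 9 genes there, with log2 fold changes of -0.93 and -1.61. In SKNMC it was not active, and its share of 2.10% at 200 nM rests on values near 0.

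SPRY4, another Sprouty gene (ENSG00000187678, chromosome 5, bases 141689991 to 141706020, minus strand), was at 12.1, 17.7 and 11.5 FPKM in A673 with DMSO, 50 nM and 200 nM. The 50 nM library was the highest, at 147% of DMSO, and the 200 nM library held 95.5%. In SKNMC it was at 1.39, 0.912 and 0.677 FPKM, lower at each dose. The log2 fold change of 0.52 in A673 at 50 nM was above that of 97.6% of active genes. At 200 nM it was -0.061 in A673, which turned to 0.29 with the 75th percentile scaling, and in SKNMC the changes were -0.32 and -0.51. Whether the lines differ in SPRY4 was not tested, since each value is 1 library.

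The SPRED genes were near or above their DMSO level at 50 nM and lower at 200 nM in both lines. SPRED proteins bind neurofibromin, the RAS GTPase-activating protein encoded by NF1, and bring it to the membrane. SPRED1 (ENSG00000166068, chromosome 15, bases 38544526 to 38649450, plus strand) was at 8.21, 10.9 and 5.10 FPKM in A673 with DMSO, 50 nM and 200 nM, and at 5.05, 5.35 and 1.97 FPKM in SKNMC. In both lines the 50 nM library was the highest and the 200 nM library the lowest. SPRED2 (ENSG00000198369, chromosome 2, bases 65537984 to 65659771, minus strand) was at 25.9, 25.9 and 9.06 FPKM in A673, and at 17.8, 14.9 and 6.72 FPKM in SKNMC. It was level with DMSO at 50 nM in A673 and the 200 nM library was lowest in both lines.

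At 50 nM the log2 fold changes of SPRED1 were 0.37 in A673 and 0.070 in SKNMC, and those of SPRED2 were 0.0028 and -0.24. The first SKNMC value turned to -0.27 with ribosomal protein scaling, as did SPRED2 in A673 to -0.22, and the second turned to 0.039 with 75th percentile scaling, so the direction at 50 nM depends on the scaling for these 3 values. At 200 nM they were -0.59 and -1.03 for SPRED1 and -1.42 and -1.28 for SPRED2, and none of these 4 changed sign under the scalings tried. From 50 nM to 200 nM, SPRED2 had a log2 change of -1.42 in A673 and -1.05 in SKNMC, and SPRED1 -0.97 and -1.10. A step of at least 2-fold down was seen for 7.44% of active genes in A673 and 8.39% in SKNMC; of the 9 and 7 active members, DUSP5 and SPRED2 made it in A673, and DUSP5, SPRED1 and SPRED2 in SKNMC. With 75th percentile scaling DUSP5 alone made it in SKNMC, where SPRED1 had -0.94 and SPRED2 -0.81. With a pseudocount of 0.1 FPKM, DUSP4, SPRY1, SPRY2 and SPRED1 made it in A673 as well, which gave 6 of 9. At 200 nM, DUSP4 and SPRY1 were at 0.383 and 0.142 FPKM there. The shares of 7.44% and 8.39% were not recomputed for that scaling or pseudocount, so these counts cannot be set against them.

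**Figure D3:**
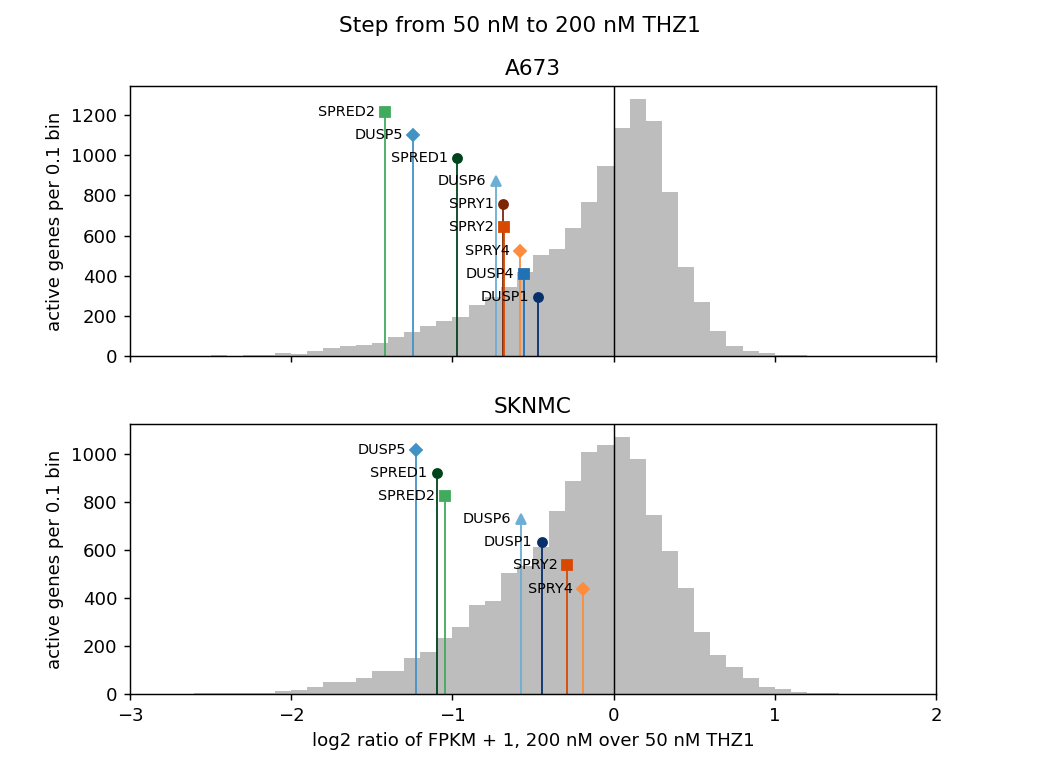
Histograms of the log2 ratio of FPKM + 1 at 200 nM over 50 nM THZ1 for all active genes (grey, bins of 0.1) in A673 (top) and SKNMC (bottom), with labelled stems at the values of the active members; stem height has no meaning. All 9 stems in A673 and all 7 in SKNMC stand below 0, with SPRED2 lowest in A673 at -1.42 and DUSP5 in SKNMC at -1.23.

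Gene size set the SPRED genes apart from the rest. SPRED1 spans 104925 bases and SPRED2 121788, more than 81.4% and 84.5% of active genes. DUSP1, DUSP6, SPRY1 and SPRY2 span between 3107 and 6962 bases, where 18.9% of active genes span under 10000 bases. DUSP4, DUSP5 and SPRY4 span between 13708 and 17606 bases. DUSP10 spans 40754, more than 56.2% of active genes, so not all of the rest are short. In the transcript with the longest coding part (GENCODE release 44 on GRCh37), 8 of the 10 genes have at most 4 exons, against 19.7% of active genes, and SPRED1 has 7 and SPRED2 6. Over all active protein-coding genes at 50 nM, 23.3% of those under 10000 bases and 8.02% of those of 50000 bases or more decreased at least 2-fold in A673, and 22.4% and 8.45% in SKNMC. At 200 nM these shares were 27.9% and 20.7% in A673 and 29.9% and 21.6% in SKNMC, and the genes between these sizes had the highest, 28.3% and 31.6%. The medians did not follow the shares at 200 nM, with log2 fold changes of -0.25 for the short and -0.41 for the long genes in A673 and -0.46 and -0.50 in SKNMC. The part of gene size in the values of single members was not tested.

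Before treatment, most of these genes were higher in A673 than in SKNMC. With DMSO, 6 of the 9 members active in either line (DUSP4, DUSP5, DUSP6, SPRY1, SPRY2 and SPRY4) were at least 2-fold higher in A673 on the FPKM + 1 scale, where 8.42% of 12399 genes were, and 0 were at least 2-fold lower, where 15% were. The ratio of FPKM in A673 to that in SKNMC was 19.2 for DUSP6, 9.63 for DUSP4, 8.66 for SPRY4, 7.73 for DUSP5, 5.70 for SPRY1 and 4.88 for SPRY2. It was 1.63 for SPRED1, 1.46 for SPRED2 and 0.935 for DUSP1, so the SPRED genes and DUSP1 were close to level. For DUSP4 and SPRY1 the ratio divides by 0.153 and 0.438 FPKM in SKNMC, below the active limit. On the FPKM + 1 scale their log2 ratios were 1.10 and 1.28. The log2 ratio of DUSP6, 4.01, was above that of 99.8% of the 12399 genes. DUSP10, at 0 in A673, was the gene listed higher in SKNMC besides DUSP1, whose log2 ratio of -0.089 turned to 0.33 with ribosomal protein scaling. The count of 6 was unchanged in each of the 4 alternatives of scaling and pseudocount. With 1 library per line, a difference between lines and one between libraries cannot be told apart.

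The levels therefore had another order in each line. With DMSO in A673 it ran DUSP6, SPRED2, DUSP5, SPRY4, DUSP1, SPRED1, SPRY2, SPRY1, DUSP4 and DUSP10, from 91.4 FPKM to a listed 0. In SKNMC it ran SPRED2, DUSP1, SPRED1, DUSP6, DUSP5, SPRY4, SPRY2, DUSP10, SPRY1 and DUSP4, from 17.8 to 0.153 FPKM. DUSP6 made up 51.3% of the summed FPKM of the 10 genes in A673 and 10.3% in SKNMC. Summed over the 10 genes, A673 held 178, 125 and 64.8 FPKM and SKNMC held 46.2, 31.7 and 14.5 FPKM (DMSO, 50 nM, 200 nM).

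The difference between the lines was also seen under THZ1. At 200 nM, 8 of the 10 genes were still higher in A673, as at 50 nM and with DMSO. With DMSO, 56% of the 12399 genes active in either line were lower in A673. Under THZ1 this share was not computed, so the counts under THZ1 describe the 10 genes alone. At 200 nM the 8 include DUSP4 and SPRY1, at 0.0354 and 0.00918 FPKM in SKNMC. The FPKM ratio for DUSP6 was 43.2 at 50 nM and 61.7 at 200 nM, and for SPRY4 it was 19.4 and 17.0. Nothing is added in these ratios. At 200 nM that of DUSP6 divides by 0.535 FPKM in SKNMC, and both SPRY4 ratios divide by less than 1 FPKM, so their size is uncertain. DUSP1, nearly level with DMSO, was lower in A673 under both doses, with ratios of 0.474 and 0.428.

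**Figure D4:**
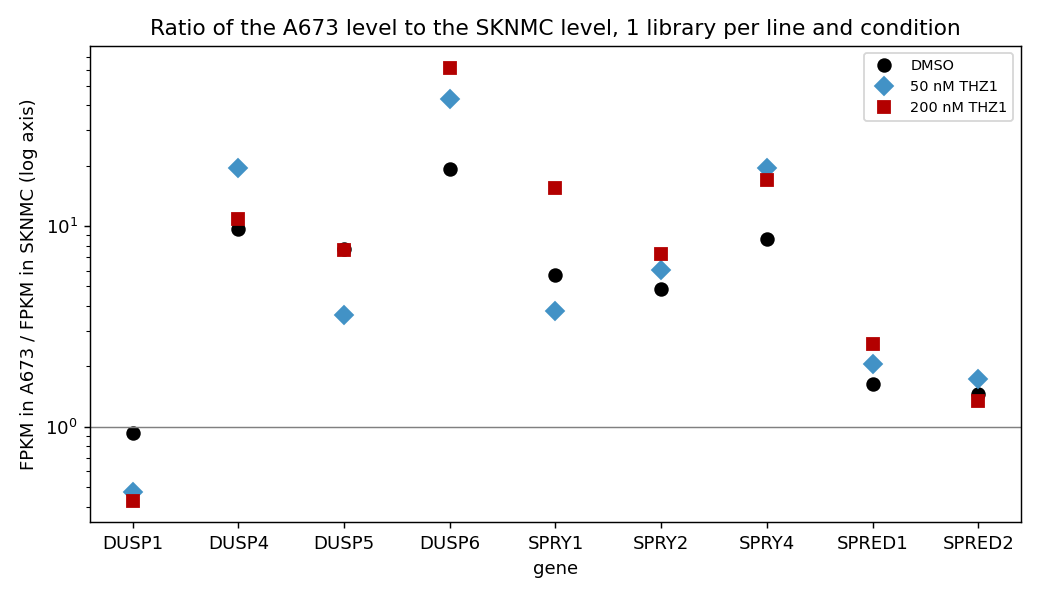
FPKM in A673 divided by FPKM in SKNMC (log axis) for 9 genes with DMSO (black), 50 nM (blue) and 200 nM THZ1 (red), 1 library per line and condition, with a grey line at a ratio of 1. DUSP6 lies highest, from 19.2 with DMSO to 61.7 at 200 nM, where its SKNMC level is 0.535 FPKM. DUSP1 lies below 1 in all 3 conditions, and DUSP10 has no point because it is listed at 0 in A673.

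The other genes of the pathway are described from lists written down with these results already known. Among the components that carry the signal, from receptors to ERK, the list medians lay between -0.29 and 0.20 in the 4 comparisons. Of the genes from the receptors to RAS, 0 of 11 active ones were down 2-fold or more at 50 nM in either line and 2 of 11 were at 200 nM in each. GRB2, the adaptor that brings SOS to receptors, had the highest mean change of the list at 50 nM, with log2 fold changes of 0.43 in A673 and 0.49 in SKNMC. KIT, a receptor tyrosine kinase, had the lowest, with -0.59 and -0.62. Of the RAF, MEK and ERK cascade, 0 of 8 were down 2-fold or more in any of the 4 comparisons. Its lowest mean at 50 nM was that of ARAF, a RAF kinase, with -0.80 and -0.89. Beside the counts of both lists, the shares of all active genes down 2-fold or more were 15.9% and 25.3% in A673 and 15.8% and 27.3% in SKNMC (50 and 200 nM).

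Of the p38 and JNK branch, 1 of 8 active ones was down 2-fold or more at 50 nM in each line and 4 of 8 were at 200 nM in each, beside 15.9% and 15.8% of all active genes at 50 nM and 25.3% and 27.3% at 200 nM. The gene at 50 nM was MAP2K7 in both lines, a kinase that activates JNK, with log2 fold changes of -1.54 in A673 and -1.31 in SKNMC. MAPK8, which encodes the kinase JNK1, was the highest of the list with 0.43 and 0.45. Of the RAS GTPase-activating proteins and other brakes, 0 of 6 decreased at least 2-fold at 50 nM and 2 of 6 at 200 nM in each line. Their lowest at 50 nM was RASA1, a RAS GTPase-activating protein, with -0.64 and -0.19, and their highest PEBP1, an inhibitor of the kinase cascade, with 0.38 and 0.37.

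A list of 7 relatives (DUSP2, DUSP7, DUSP8, DUSP9, DUSP16, SPRY3 and SPRED3), of which 3 were active in A673 and 4 in SKNMC, had medians of -1.08 and -2.08 in A673 and -1.25 and -1.71 in SKNMC, at 50 and 200 nM. At 50 nM, 2 of 3 active ones were down 2-fold or more in A673 and 2 of 4 in SKNMC, and at 200 nM 3 of 3 and 3 of 4 were, beside 15.9% and 15.8% of all active genes at 50 nM and 25.3% and 27.3% at 200 nM. DUSP16, a phosphatase of JNK and p38, was past 2-fold in both lines at 50 nM, with log2 fold changes of -1.67 and -1.57, from 6.27 to 1.29 FPKM in A673 and from 5.51 to 1.19 FPKM in SKNMC. SPRY3 was below 0.1 FPKM in all libraries. With DMSO this list ran opposite to the members, with 3 of the 5 genes active in either line at least 2-fold lower in A673 than in SKNMC (15% of genes), 0 higher and a median log2 ratio of -1.90. DUSP2, a nuclear phosphatase chosen after its values were seen, was higher in SKNMC than in A673 with DMSO, at 81.7 against 0.706 FPKM.

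Genes switched on by ERK were found in both directions. At 50 nM 2 of 11 active ones were down 2-fold or more in A673 and 2 of 9 in SKNMC, and at 200 nM 4 of 11 and 3 of 9 did, while 3 of 11 and 2 of 9 increased at least 2-fold. Of all active genes, 15.9% and 15.8% were down 2-fold or more at 50 nM and 25.3% and 27.3% at 200 nM, and 0.126% and 0.462% were up at 200 nM. FOSL1, an AP-1 subunit, was at 19.7, 4.37 and 3.07 FPKM in A673 and at 1.42, 1.66 and 4.34 FPKM in SKNMC with DMSO, 50 nM and 200 nM. FOS, the AP-1 subunit with the highest mean change of the list at 50 nM, had log2 fold changes of 0.92 and 1.75 in A673 and 0.41 and 0.67 in SKNMC. With DMSO, 5 of the 11 genes were at least 2-fold higher in A673 than in SKNMC, where 8.42% of genes were, and 1 was at least 2-fold lower, where 15% were.

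**Figure D5:**
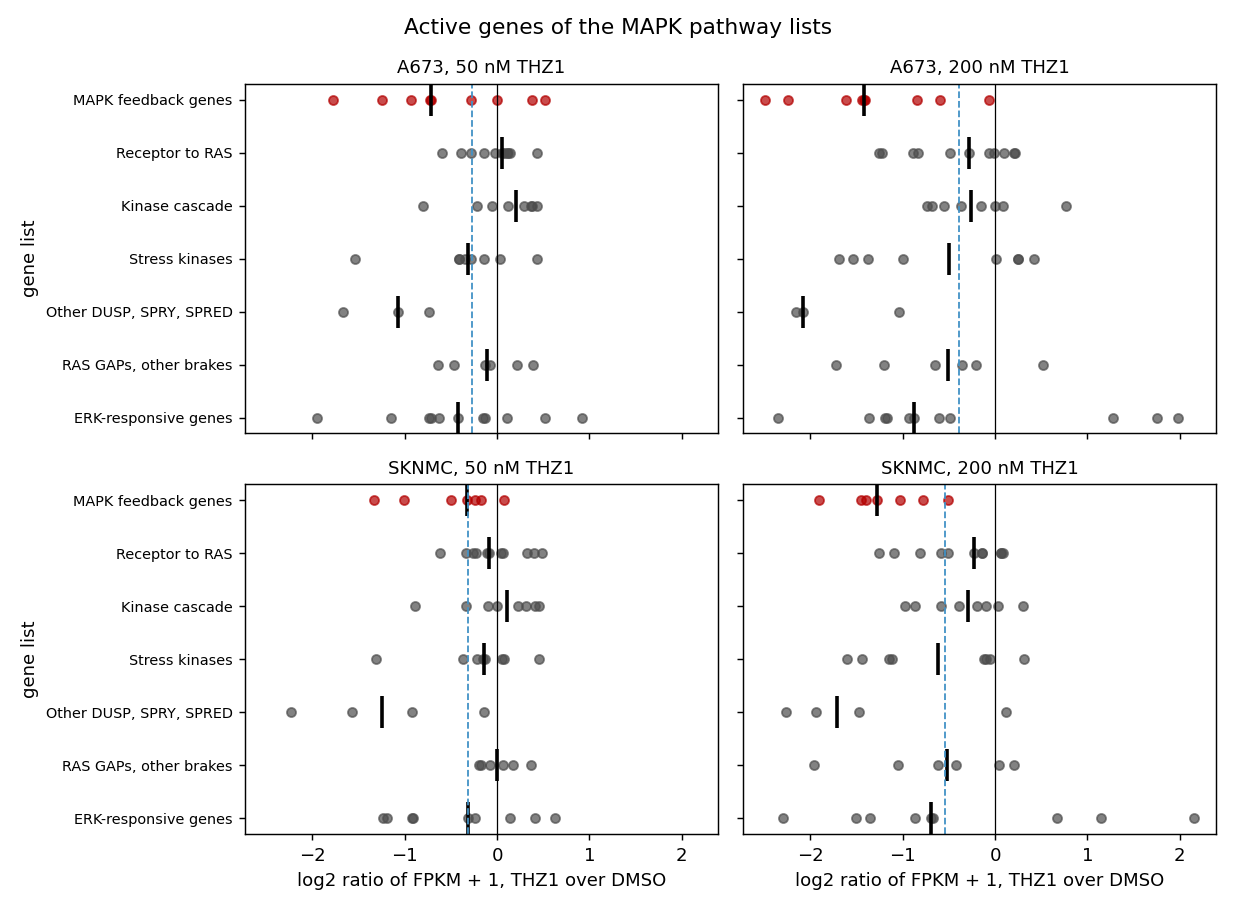
Log2 ratio of FPKM + 1, THZ1 over DMSO, of the active members (red) and of the active genes of 6 other MAPK lists (grey) in A673 (top) and SKNMC (bottom) at 50 nM (left) and 200 nM (right); 1 point per gene, black bars are list medians and the dashed blue line is the median of all active genes. The medians of the members at 200 nM are -1.42 and -1.28, and those of the kinase cascade are -0.27 and -0.29.

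The members did not share a single pattern. By Euclidean distance over the 4 log2 fold changes against DMSO, the closest of the 7 members active in both lines were SPRY4 and SPRED1, with 0.851, and the most distant were DUSP1 and SPRY4, with 3.38. Among 10568 genes active in both lines and above 0 in all libraries, those closest to DUSP1 were RAP2B, TSPYL5, CXorf40A, CSRNP2 and RDH13, at distances of 0.243 to 0.268. The highest mean was that of DUSP10, whose A673 values are 0 by its listing, and its closest genes were HES6, URI1, ABRACL, CHD1L and RP11-321N4.5, at 0.0497 to 0.106. For SPRY4, taken after its values were seen as the highest member active in both lines, they were RP5-884C9.2, PTPRG, MIR4435-1HG, UHMK1 and CDK14, at 0.213 to 0.325.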

How the data were processed

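RNA-seq values of 6 libraries from A673 and SKNMC cells were used, 1 per condition, grouped by sample titles, which spell the second line SKMNC. The authors aligned 100-bp paired-end TruSeq reads to hg19 with STAR and Ensembl 75, estimated expression with StringTie by their methods (the submitters' processing notes name Cufflinks), and deposited FPKM values. The table's title speaks of averages, and how many cultures a column holds is not given in the sources used here. Its 4 columns of the authors' own log2 fold changes were not used.

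Log2 ratios of FPKM + 1 were computed with Python 3.11.15, numpy 2.4.6 and pandas 2.3.3 and the steps were tested on simulated data. Called genes changed at least 2-fold among genes above 1 FPKM with DMSO. FPKM holds no counts. Low values showed no clear common step, so depth is unknown and no counting interval is given. FPKM is a share of the library, and values listed at 0 can be failed estimates.

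Members and lists were chosen with earlier results of these data known. All members were named; of other lists, genes past 2-fold in both lines at 50 nM and each list's lowest and highest mean at 50 nM (1 such gene is not reported here); and the 5 genes nearest to the members with the lowest and highest mean change. DUSP2, EGR1, HRAS, SPRY4's neighbours and gene size were added after values were seen. Alternatives were other pseudocounts, filters, thresholds and scalings.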

Additional observations from a re-analysis of the deposited data

Results flagged for a closer look

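No one of the 7 feedback genes active in both lines had opposite directions in the 2 lines at both doses on the deposited scale. With 75th percentile scaling 1 did, SPRY4, with log2 fold changes of 0.76 and 0.29 in A673 and -0.18 and -0.25 in SKNMC. Over the members and the other pathway lists, 3 of 51 genes active in both lines did, where 5.27% of the 10574 genes active in both lines did. EGR1, an immediate early transcription factor, was above DMSO in A673, with log2 fold changes of 0.11 at 50 nM and 1.98 at 200 nM, and below it in SKNMC, with -1.19 and -0.67. FOSL1 was the reverse, with -1.95 and -2.35 in A673 and 0.14 and 1.15 in SKNMC. HRAS, which encodes a RAS protein, had 0.058 and 0.094 in A673 and -0.26 and -0.15 in SKNMC. Scalings were tried for the members alone. The A673 values of EGR1 and HRAS at 50 nM are smaller in size than the median shift of -0.19 with ribosomal protein scaling. That of FOSL1 in SKNMC at 50 nM is smaller than the shift of -0.34 there, so these directions can turn with the scaling. No test of these line differences was possible, since each value is 1 library against 1 library.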

How the results depend on the processing

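Among SKNMC genes at 50 nM, the count decreased at least 2-fold was 1 in place of 2 under 3 alternatives, above 5 FPKM with DMSO, a common sum and the 75th percentile. Of all genes in the same settings, 15.8%, 15.5% and 10.3% decreased so. At 200 nM in SKNMC the count was 3 of the 3 genes above 5 FPKM (29.6% of all such genes), and 2 of 7 with the 75th percentile (13.4%), in place of 5 of 7. In A673 at 50 nM it was 5 in place of 2 with a 1.5-fold threshold, a decrease that 31.8% of all active genes had. With the common sum DUSP1 in SKNMC at 50 nM had a log2 fold change of -0.9999, just short of the limit. The count past 2-fold from 50 nM to 200 nM was 6 in place of 2 in A673 with a pseudocount of 0.1 FPKM, and 1 in place of 3 in SKNMC with the 75th percentile. The count past 2-fold in both lines was 0 in place of 1 at 50 nM with the common sum and the 75th percentile, and 2 in place of 4 at 200 nM with the 75th percentile, where 1 gene in place of 0 (SPRY4) had opposite directions in the lines. Shares of all genes were not recomputed for the counts past 2-fold between doses or in both lines. Nor were they for the counts of any decrease from DMSO, of a decrease at 50 nM followed by a further one, or of opposite directions. The other counts of members recomputed were within 1.5 times of the reported ones. Among them, the SKNMC genes lower at 50 nM, and those lower again at 200 nM, were 4 in place of 6 with the 75th percentile. Of 280 values of single members under 4 alternatives, 261 moved by less than 1.5-fold, 19 moved by more, all with a pseudocount of 0.1 FPKM, and 6 values, each under 2-fold, changed sign with a scaling. Checks of member counts other than those past 2-fold against DMSO in 1 line used alternatives chosen after seeing the data. Counts of the other pathway lists were not checked under alternatives. Within a line each dose has 1 library and nothing to pair. A fit over both lines with the line as a block, which would take the lines as replicates, was not run. Depth is unknown from FPKM, so values near 0, such as SPRY1 and DUSP4 in SKNMC, carry an error that cannot be given.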
